A study of Mus musculus with 10 samples.

Results

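HEB binding sites were examined around 9 mouse genes: the keratin genes Krt8, Krt18, Krt5 and Krt14, the epithelial adhesion and junction genes Epcam and Evpl, the cofactor gene Hopx, and the smooth muscle actin genes Actg2 and Acta2. The genes were chosen by name with the positions and scores of these summits in view, and every peak summit within 100 kb of their gene bodies was taken, so the counts and scores below describe the sites and are not tests. They are 9 of 21887 protein-coding genes on the assembled chromosomes, and 9 of the 2049 summits of the study lay within 100 kb of one of them. Hopx encodes neither a keratin, a junction protein nor a contractile protein, and it is kept as a gene of its own.

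HEB, the product of Tcf12, belongs to the E-proteins, helix-loop-helix factors that bind as dimers to the E-box CANNTG. ID proteins such as ID4 pair with them but lack the region that contacts DNA, so a dimer with an ID protein does not bind an E-box. In the mammary gland, luminal cells line the ducts and carry the keratins of Krt8 and Krt18, while the contractile myoepithelial cells of the basal layer carry those of Krt5 and Krt14 together with smooth muscle actin.

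The sites come from chromatin immunoprecipitation and sequencing in Comma-Dβ cells, a single mouse mammary epithelial line, at passage 28. In 3 libraries the cells had received 20 nM of ON-TARGETplus non-targeting siRNA (siNT) and in 3 libraries 20 nM of siGENOME SMARTpool siRNA against mouse Id4 (siID4), and both were harvested 48 h after transfection. A further 4 libraries were inputs without antibody, labelled as serving both siRNAs and as having received no siRNA. The authors deposited 1 list of summits per siRNA, with 1489 summits for siID4 and 560 for siNT. No value per library enters the results, the depth of the libraries is unknown, and spread between replicates cannot be given for any value. Each summit has a score, read from the layout as −log10 of a q-value, which ranks it within its own list but cannot be set against scores of the other list. Expression is not part of the data, so neither the knockdown of Id4 nor the expression of the keratins and actins that define the cell types was measured here.

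After Id4 knockdown, 6 of the 9 genes had a summit within 100 kb, namely Krt8, Krt18, Krt5, Evpl, Hopx and Actg2, whereas 10.1% of all protein-coding genes did. In the siNT list 1 of the 9 genes had one, Epcam, against 5.16% of all protein-coding genes. None of the 9 genes had a summit in both lists, where 3.94% of all protein-coding genes did. Krt14 and Acta2 had none in either, like 88.7% of all protein-coding genes. Because the genes were chosen with these lists in view, nothing is read from their counts beside those shares. The 6 genes drew on 8 siID4 summits, since Krt8 and Krt18 had the same one and Evpl had 4. Of these 8 summits, 5 had one of the 9 genes as the nearest protein-coding gene: 1 each at Krt8, Hopx and Actg2, and 2 at Evpl. Of all protein-coding genes, 3.48% were the nearest gene of an siID4 summit within 100 kb and 1.54% that of an siNT summit. A summit counted as shared when the other list held one within 200 bp. By this measure 0 of the 8 siID4 summits and 0 of the 1 siNT summit were shared, where 19.5% of all siID4 summits (95% exact Clopper-Pearson interval 17.5 to 21.6, counting error only) and 51.8% of all siNT summits (47.6 to 56.0) were.

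**Figure D1:**
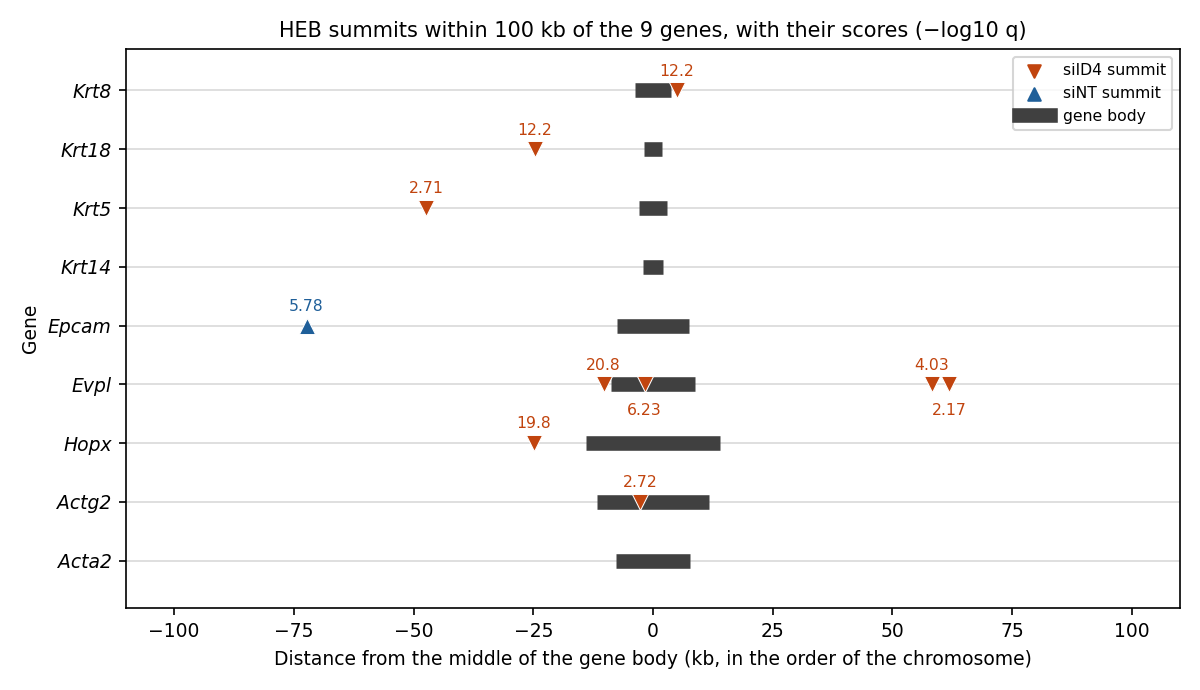
Summits within 100 kb of each gene, plotted by distance from the middle of the gene body in kb, in the order of the chromosome. Bars are gene bodies to scale, red triangles siID4 summits and the blue triangle the siNT summit, each with its score (−log10 q). Krt14 and Acta2 have no summit, and the highest scores, 20.8 and 19.8, stand beside Evpl and Hopx.

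The simple epithelial keratin genes Krt8 and Krt18 encode the type II and type I partners of 1 filament pair. They lie head to head on chromosome 15 with 23874 bp between their bodies, Krt8 from 101996711 to 102004342 on the minus strand and Krt18 from 102028216 to 102032026 on the plus strand (mm10). The siID4 list held 1 summit in the interval between them, at position 102005517. It lay 1175 bp upstream of the start of Krt8 and 22699 bp upstream of the start of Krt18, and 626 bp from the long non-coding RNA gene Gm36026. Its score was 12.2, rank 220 of 1489, which 14.8% of the list reached. The nearest siNT summit was 2.66 Mb away, inside Fmnl3.

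The sequence under this summit was not used here, but RefSeq (GRCm38.p6, the assembly behind mm10) gives the 250 bases before the start of both genes, which flank it. They are shown with the promoter of Krt5, the basal keratin gene of the same cluster, and of Acta2, the gene with the most distant summits. Each is written 5′ to 3′ on the strand of its gene and ends at the base before the start, with every CANNTG in capitals. The start used for Acta2, 34255373, lies inside its gene body, which ends at 34255585, so its window overlaps the body.
Krt8, chr15:102004343-102004592, minus strand: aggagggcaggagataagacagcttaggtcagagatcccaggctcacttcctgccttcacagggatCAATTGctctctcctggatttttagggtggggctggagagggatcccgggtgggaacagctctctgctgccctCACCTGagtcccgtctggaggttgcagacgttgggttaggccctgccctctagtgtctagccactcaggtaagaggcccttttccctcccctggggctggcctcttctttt
Krt18, chr15:102027966-102028215, plus strand: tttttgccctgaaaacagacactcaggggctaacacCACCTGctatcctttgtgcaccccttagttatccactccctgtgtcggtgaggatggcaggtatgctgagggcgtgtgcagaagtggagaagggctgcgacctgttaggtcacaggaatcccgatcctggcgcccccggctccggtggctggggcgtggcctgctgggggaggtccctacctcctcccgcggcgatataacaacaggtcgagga
Krt5, chr15:101712906-101713155, minus strand: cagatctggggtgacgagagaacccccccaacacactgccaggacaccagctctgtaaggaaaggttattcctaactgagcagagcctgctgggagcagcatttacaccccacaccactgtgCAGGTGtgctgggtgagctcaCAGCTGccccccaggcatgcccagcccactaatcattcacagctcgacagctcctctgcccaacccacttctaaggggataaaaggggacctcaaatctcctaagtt
Acta2, chr19:34255374-34255623, minus strand: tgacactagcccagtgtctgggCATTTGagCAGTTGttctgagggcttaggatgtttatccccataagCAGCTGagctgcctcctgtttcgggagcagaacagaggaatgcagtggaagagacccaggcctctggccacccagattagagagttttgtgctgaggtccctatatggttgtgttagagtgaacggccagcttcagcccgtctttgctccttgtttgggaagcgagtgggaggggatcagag

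The letters CANNTG, which read the same on both strands, occurred 2 times before Krt8, 1 time before Krt18, 2 times before Krt5 and 3 times before Acta2. Of all 32851 RefSeq promoter entries cut to the same length, 66.2% held at least 1. The word CAGGTG, searched with its reverse complement CACCTG, was in the windows of Krt8, Krt18 and Krt5 and in 17.2% of all entries. CAGCTG, which is its own reverse complement, was in those of Krt5 and Acta2 and in 13.0% of all entries. Both words are special cases of CANNTG. In the promoter entries not shown, CANNTG occurred 2 times before Epcam and 1 time before Krt14. Before the 2 starts of Hopx it occurred 1 and 0 times. The start used for Krt14, 100206030, and the Hopx start at 77095267 lie inside their gene bodies, and so do the windows before them. Both words before Epcam were CAGGTG or CACCTG, and the entries of Krt14 and Hopx held neither these nor CAGCTG. In Krt8 the word CACCTG began 111 bases before the start, and the summit lay 925 bp beyond the far end of the window. No summit of either list fell in any of these windows, and a match in the letters is a description, not a binding site.

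Krt5, the basal partner of Krt14, lies from 101707069 to 101712905 of chromosome 15, 283806 bp below Krt8. The 1 siID4 summit within 100 kb, at position 101662642, lay 44427 bp downstream of the gene and scored 2.71, rank 1101 of 1489. Krt6b (13381 bp away), Krt6a (27286 bp) and Gm5414 (34390 bp) were nearer to it than Krt5. Krt6a and Krt6b encode the stress-induced epithelial keratins and are close copies of each other, and whether reads place uniquely between them was not tested. Krt14, from 100203162 to 100207510 of chromosome 11, had no summit in range. Its nearest siID4 summit was 254.2 kb away inside the keratin-associated gene Krtap9-5 (score 4.34), and its nearest siNT summit 323.6 kb away inside Gm11567 (score 31.3).

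Keratin genes were taken as the 53 protein-coding genes with a symbol of Krt and a number, optionally with a letter, the 4 above included. Of these 53 genes, 18 had an siID4 summit within 100 kb (34.0%) and 3 had an siNT summit (5.66%). The shares of all protein-coding genes were 10.1% and 5.16%. Of the 18 genes, 11 lie on chromosome 15, where 21.5% of protein-coding genes had an siID4 summit, and 7 on chromosome 11. These 18 genes drew on 5 summits, because the genes stand close together, and the nearest protein-coding gene of a summit was a keratin gene only at Krt8 and Krt6b. The type II cluster with Krt18 on chromosome 15, from Krt80 to Krt18, spans 683.7 kb and held 2 siID4 and 0 siNT summits, those near Krt8 and Krt6b. The type I cluster on chromosome 11, from Krt222 to Krt42, spans 1037 kb and held 5 siID4 and 4 siNT summits, of which 3 were shared. On the whole of chromosome 11, 22.4% of protein-coding genes had an siID4 summit within 100 kb and 13.1% an siNT summit. All summits of the type I cluster had a keratin-associated protein gene or a Gm-numbered gene as their nearest protein-coding gene. Keratin-associated proteins are hair proteins encoded by families of similar genes, and mappability was not analysed here.

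Evpl encodes envoplakin, a plakin that links keratin filaments to desmosomes and the cornified envelope. It lies from 116220559 to 116238165 of chromosome 11 and was the only one of the 9 genes with more than 1 summit. The highest of its 4 siID4 summits, at position 116219075, lay 1484 bp below the gene's lower end, with a score of 20.8 and rank 104, which 6.98% of the list reached. It fell inside Cdk3, annotated as a transcribed pseudogene, and the next protein-coding gene, Ten1, was 3757 bp away. The second lay inside Evpl at position 116227612, 8537 bp from the first, with a score of 6.23 and rank 489, and inside the long non-coding RNA gene Gm33250 as well. The other 2 summits, 49455 and 53044 bp above the gene, belonged by distance to Exoc7, an exocyst subunit gene, and scored 4.03 and 2.17. The nearest siNT summit was 167.0 kb from Evpl, inside Rnf157 (score 3.57).

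Evpl stands in a part of chromosome 11, beyond 110 Mb, that is crowded with summits. There, 99.1% of the 214 protein-coding genes had an siID4 summit within 100 kb, 73.8% had 4 or more (1.11% of all protein-coding genes did), and 53.7% had an siNT summit. The presence of siID4 summits near Evpl and their number were therefore usual for the region. Of the 333 siID4 summits of the region, 11 were shared (3.30%), against 19.5% of the whole list. In the top 10% of the list stood 3 of the 333. Of these 3 summits 2 were shared, and the Evpl summit of rank 104 was not, while the other 3 summits near Evpl ranked lower. Copy number and input coverage of the region were not analysed here.

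Epcam encodes the cell adhesion molecule EpCAM of simple epithelia and lies from 87635979 to 87651127 of chromosome 17 on the plus strand. It was the only one of the 9 genes with an siNT summit, at position 87571225, 64754 bp upstream of its start, with a score of 5.78 and rank 301 of 560. Epcam was the only protein-coding gene within 100 kb of this summit. A long non-coding RNA gene, Gm46587, was nearer, with its annotated start 468 bp away. The nearest siID4 summit was 624.4 kb from the siNT summit and 544.5 kb from the gene. Of the 7 genes with a summit in either list, Epcam was thus the 1 with its site in the siNT list, a single summit of middle rank. Of all protein-coding genes, 1.22% had only siNT summits within 100 kb and 6.12% only siID4 summits. Nothing is read from this split, because the genes were chosen with the lists in view.

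The other junction genes are given by their lists, beside the 10.1% and 5.16% of all protein-coding genes with an siID4 and an siNT summit within 100 kb. Of the 15 genes listed under desmosome and plakin, Evpl alone had a summit within 100 kb, in the siID4 list. That list did not hold every plakin gene: Plec and Dst were counted with the hemidesmosome genes, and both had an siID4 summit within 100 kb. None of 9 adherens junction genes, Cdh1 and Ctnnb1 among them, had a summit in either list, and of 6 genes of EpCAM and its partners only Epcam had. Of 13 tight junction genes, 2 had an siID4 (15.4%) and 3 an siNT summit (23.1%). Cldn3 and Cldn4 counted the same siNT summit, and the siNT summits of F11r lay 82170 and 94567 bp from it. Only Tjp1, the gene of the scaffold protein ZO-1, was nearest to its summit, an siID4 summit inside it (score 9.14, rank 308). Of 8 hemidesmosome genes, 3 had an siID4 (37.5%) and 2 an siNT summit (25%). Of their 8 siID4 and 4 siNT summits, 6 and 3 lay within 100 kb of Itgb4, in the crowded part of chromosome 11. Each of those at Itgb4 was nearest to another gene. Plec, which encodes the plakin plectin that ties keratin filaments to hemidesmosomes, contained a shared site, with an siID4 score of 22.8 (rank 96) and an siNT score of 19.6 (rank 91) 11 bp apart. The site inside Plec had nearly the siID4 rank of the one beside Evpl, yet was found in both lists. Of 10 cornified envelope genes, 3 had an siID4 summit, the same one for all, nearest to the involucrin gene Ivl (9236 bp, score 2.48), and 0 an siNT summit.

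Hopx encodes a small homeodomain protein that does not bind DNA and is known as a cofactor that restrains serum response factor. The gene lies from 77086986 to 77115123 of chromosome 5 on the minus strand. The siID4 list held 1 summit in range, at position 77076137, 10849 bp beyond the 3′ end of the gene and 19130 bp from the nearer of its 2 annotated starts. It scored 19.8, rank 116, which 7.79% of the list reached. The next protein-coding gene, Thegl, was 14596 bp away on the other side. The nearest siNT summit was 3.19 Mb away. On chromosome 5, 30.4% of protein-coding genes had an siID4 summit within 100 kb and 10.2% an siNT summit. Of its 209 siID4 summits 17 were shared (8.13%), and 3 ranked in the top 10% of the list. The Hopx summit was the 1 of these 3 that was not shared.

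The smooth muscle actin genes Actg2 and Acta2 had 1 low-ranking siID4 summit between them. Actg2, the gene of enteric smooth muscle γ-actin, lies from 83512909 to 83536251 of chromosome 6 and contained 1 siID4 summit at position 83521910. Its score of 2.72 ranked 1097 of 1489, and 73.7% of the list scored as high or higher. The nearest siNT summit was 5.86 Mb away. Acta2, the gene of smooth muscle α-actin and the usual marker of myoepithelial cells, lies from 34240336 to 34255585 of chromosome 19. Its nearest summits were 5.79 Mb away in the siID4 list and 6.85 Mb away in the siNT list, the farthest of the 9 genes in both.

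Of 25 genes of the contractile apparatus, Actg2 and Acta2 included, 8 had an siID4 (32.0%) and 4 an siNT summit (16.0%) within 100 kb, against 10.1% and 5.16% of all protein-coding genes. Of their 26 siID4 summits, 16 lay within 100 kb of Actg1, in the crowded part of chromosome 11. A summit had a contractile gene as its nearest protein-coding gene at Actg2, at Cnn2, a calponin gene (siID4 score 12.5, rank 213, inside the gene), and at Myh9, the gene of non-muscle myosin heavy chain IIA (siID4 score 4.05, rank 780, inside the gene). None of these 3 summits was shared, where 19.5% of all siID4 summits were. Shared siID4 summits lay within 100 kb of Csrp1 (rank 34), Cnn2 (ranks 37 and 40), Myh9 (rank 344) and Actg1 (rank 1320), each nearest to another gene. Of 7 genes around serum response factor, only Hopx had a summit.

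In the siID4 list the summits at the 9 genes ranked from 104 to 1242 of 1489, with a median score of 5.13 against 4.31 for the list. Sharing between the lists depended on rank, so each summit was set beside the summits within 50 ranks of it, a comparison chosen after the data were seen. Of those around the Evpl summit of rank 104, 82.2% were shared (95% exact interval 73.3 to 89.1), and around the Hopx summit 75.8% (66.1 to 83.8). These intervals hold counting error only and no spread between libraries. On assembled chromosomes alone the shares were 83.3% and 76.0%. These 2 summits were absent from the siNT list at ranks where most siID4 summits were present in it. Because the genes were chosen with these summits in view, nothing is read from this difference. In their own regions sharing was rare at all ranks together: 3.30% of siID4 summits on chromosome 11 beyond 110 Mb and 8.13% on chromosome 5. In the top 10% of the list each of these regions held 3 siID4 summits, of which 2 were shared. Around the Krt8 summit 45.4% were shared (35.8 to 55.2), and around the siNT summit near Epcam 49.0% (38.9 to 59.2). Around the second Evpl summit the share was 17.8%, and around the Krt5, Actg2 and Exoc7 summits it lay between 3.0% and 4.48%, so that absence from the siNT list was usual at their ranks. Absence from a list means that no summit passed the authors' threshold, which for the siNT list depends on a depth that is unknown.

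**Figure D2:**
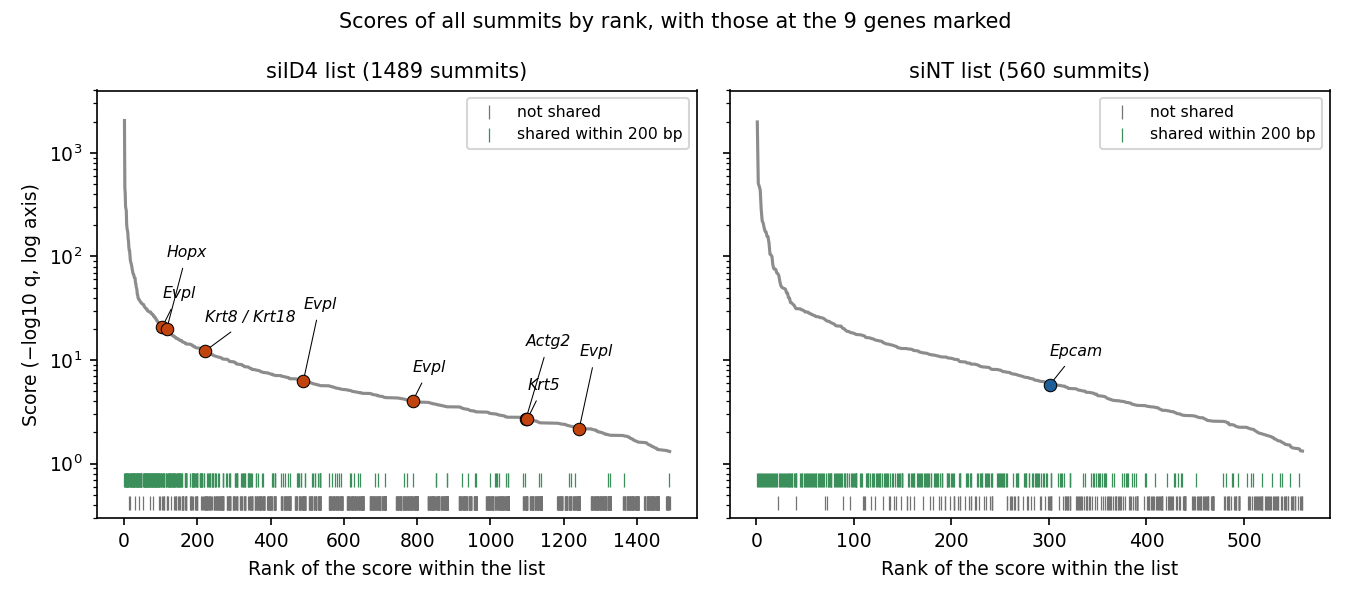
Score (−log10 q, log axis) of every summit by its rank in the siID4 list (left) and the siNT list (right), as a grey line, with the summits at the 9 genes as labelled points. The ticks below the line mark summits shared within 200 bp (green) and not shared (grey); the green ticks crowd at the high ranks on the left, where the first Evpl summit and the Hopx summit stand at ranks 104 and 116.

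**Figure D3:**
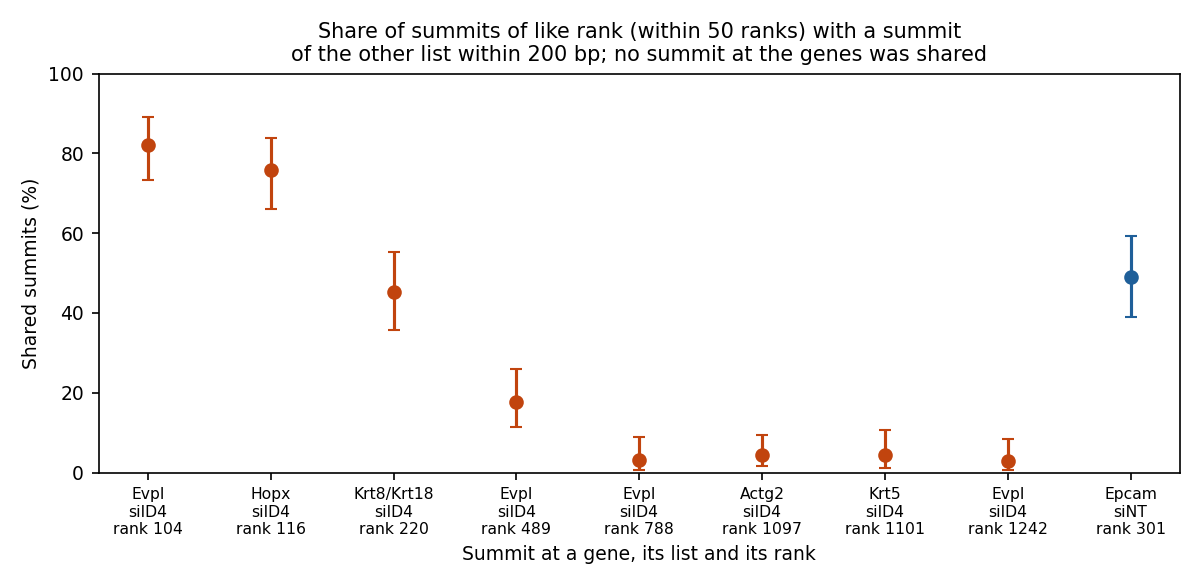
For each summit at the genes, the percentage of summits within 50 ranks of it in its own list that have a summit of the other list within 200 bp, with exact 95% binomial intervals (counting error only). The share falls from 82.2% around the first Evpl summit to 3.0% around the Evpl summit of rank 1242, and is 49.0% around the siNT summit near Epcam.

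The chromosomes of the 9 genes differed in how many of their genes had a summit. On chromosome 15, with Krt8, Krt18 and Krt5, 21.5% of protein-coding genes had an siID4 summit within 100 kb and 10.7% an siNT summit. On chromosome 6, with Actg2, the shares were 11.5% and 5.24%, on chromosome 17, with Epcam, 9.07% and 5.29%, and on chromosome 19, with Acta2, 8.94% and 6.81%. Of all protein-coding genes, 6.12% had only siID4 summits within 100 kb, 1.22% only siNT summits and 3.94% both.

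**Figure D4:**
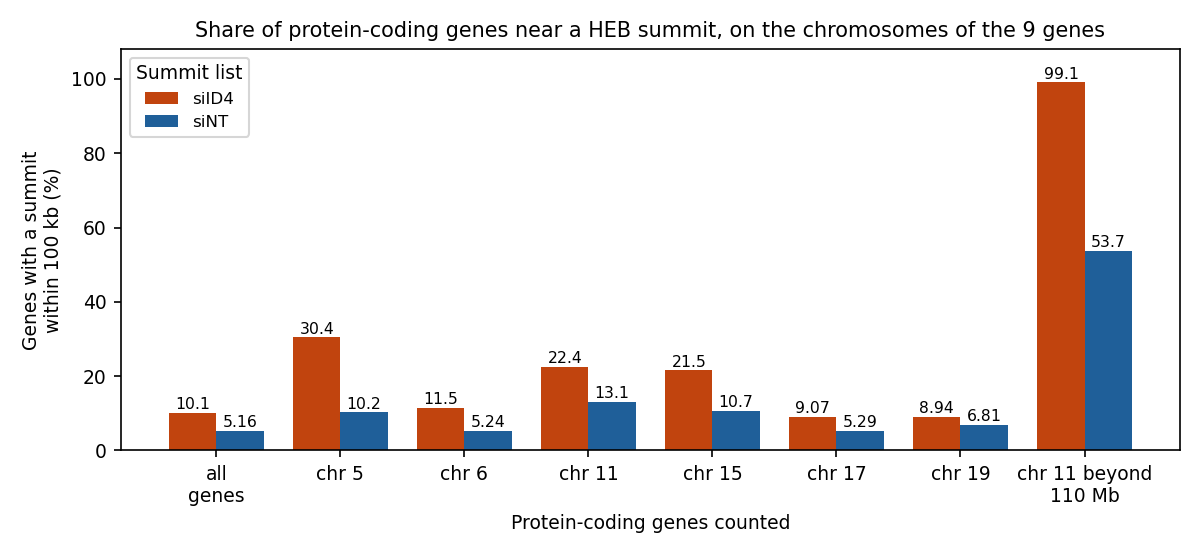
Percentage of protein-coding genes with a summit within 100 kb in the siID4 list (red bars) and the siNT list (blue bars), for all genes, for the chromosomes that carry the 9 genes, and for chromosome 11 beyond 110 Mb, where Evpl lies. The last group stands apart, at 99.1% and 53.7%.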

How the data were processed

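Per the labels, 10 libraries were made: 3 HEB immunoprecipitations with siNT, 3 with siID4 and 4 inputs. The authors deposited 1 summit list per siRNA, and mm10 and SAMtools are named in the submitters' processing notes. Column 5 of the deposited lists is read as −log10 of a q-value from its layout and its minimum, 1.31 and 1.32, just above 1.30. How the 3 libraries were combined, and with which aligner and caller, is not given in the sources used here.

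Positions are 1-based. Distances to gene bodies, ranks (ties take the better rank) and sharing within 200 bp were computed with Python 3.11.15, pandas 2.3.3 and NumPy 2.4.6, intervals with SciPy 1.17.1, and the functions were tested on simulated data. Genes, starts and promoters are from RefSeq GRCm38.p6. Starts and promoters were found for 7 of the 9 genes and not used for Evpl and Actg2. No test was run: there is 1 list per siRNA. The 9 genes and the gene lists were chosen with earlier results of these data known. Named besides the 9 genes are the nearest genes of their summits, listed genes that are the nearest gene of a summit, and genes of like rank. Neighbours beyond these, other listed genes without such a summit, Actg1, Cldn3, Cldn4, Csrp1, Dst, F11r and Itgb4 were named after their values were seen.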

Additional observations from a re-analysis of the deposited data

How the results depend on the processing

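No paired analysis was possible because the deposited lists hold no values per library, and for the same reason no library could be left out in turn. Within 10 kb, 3 of the 9 genes had an siID4 summit (4 summits) and 0 an siNT summit (0 summits). Within 50 kb the siNT numbers were also 0 and 0. Within 200 kb there were 15 siID4 summits, and 2 genes had 3 siNT summits, with 1 summit shared in each list. The siID4 summits at the genes numbered 4 at a score of at least 5, 4 above the median score, 5 with the nearest protein-coding gene only and 4 without chromosome 11 beyond 110 Mb. Above the median score 0 genes had an siNT summit (0 summits). Of the 137 other genes of the lists, 30 had an siID4 (21.9%) and 12 an siNT summit (8.76%) within 100 kb. Of all protein-coding genes, 10.1% and 5.16% did. The siID4 count became 6 within 10 kb, 12 within 50 kb, 57 within 200 kb, 14 at a score of at least 5 and 6 with the nearest gene only. The siNT count became 1, 5 and 21 at these distances and 1 with the nearest gene only. Of all protein-coding genes, 3.48% and 1.54% were the nearest gene of an siID4 and an siNT summit. All-gene shares at the other distances and score limits are not given, so nothing is read from the counts there, those of the 9 genes included. The list genes were recounted, and the shares at like rank were set beside 100 ranks and assembled chromosomes, after the data were seen. Sharing within 100, 500 or 1000 bp left the number of shared summits at 0. The depth of the libraries limits every statement of absence and is unknown.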

Other observations

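Some other genes resembled those with close siID4 summits, having an siID4 summit within 5000 bp that had no siNT summit within 1000 bp and stood nearest in rank, a likeness over the 2 lists only. For the Evpl summit of rank 104 these were Ift140, a gene of transport in cilia (rank 110), and Mdga2 (rank 80), each with the summit inside the gene. For the Krt8 summit they were Zcchc24, with the same score of 12.2, and St3gal1, a sialyltransferase gene (rank 217). For the second Evpl summit they were Col14a1, a collagen gene of the same score (6.23), and Eif4a3l1 (rank 487). For the Actg2 summit they were Klhl7, with the same score of 2.72, and Slc39a11 (rank 1095).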
